A study of Homo sapiens with 2 samples.

Results

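Centromere, kinetochore and spindle checkpoint genes were examined in a pair of PAR-CLIP libraries, 1 for the RNA-binding protein ZC3H7B and 1 for its relative ZC3H7A. The genes were a list of 41 symbols looked up by name in both gene tables, whatever their values. The list was chosen with earlier results of these data known. Of the 41, 38 had a called cluster in the ZC3H7B library and 36 in the ZC3H7A library, out of 9159 genes listed for ZC3H7B and 8204 for ZC3H7A. Of these, 35 were listed in both tables, CENPN, CENPP and CENPT were listed for ZC3H7B alone, and CENPM was listed for ZC3H7A alone. Thus 35 of the 39 members listed in either table were in both, against 7218 of 10145 over all genes. Members had more reads than the median gene, as given below, and the part of this in the listing was not tested. SPC25 and SKA1 were listed in neither table, which means no called cluster and is not a count of 0 reads. CENPU was found under its older symbol MLF1IP.

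The kinetochore is the protein assembly that joins a chromosome to spindle microtubules. It is built on nucleosomes that carry the histone H3 variant CENPA, through an inner layer called the constitutive centromere-associated network and an outer layer that grips the microtubule. Kinetochores without proper attachment release the spindle assembly checkpoint signal, which holds back anaphase, and the chromosomal passenger complex with Aurora B corrects faulty attachments. Many of these genes are transcribed mainly in the later part of the cell cycle.

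Both libraries came from HEK293, a human embryonic kidney line. Flag/HA-tagged ZC3H7B or Flag/HA-tagged ZC3H7A was overexpressed in each by 24 h of doxycycline at 1 µg/mL. All cells were also given 100 µM 4-thiouridine for 16 h and 365 nm light, which crosslinks the labelled RNA to bound protein. A crosslink is read as a T-to-C conversion, and overlapping reads are grouped into clusters. The labels give the same overexpression and drug for both libraries and there is 1 library of each, and no library of untagged cells was analysed here. The values below therefore compare those libraries, with no replicate check, no test between the proteins and no background library. RNA levels were not measured, so more binding to a transcript and more of that transcript cannot be told apart.

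Gene clusters numbered 99805 with 2409465 reads, 1212989 of them distinct, for ZC3H7B. For ZC3H7A they numbered 51808 with 3779662 reads, 300342 of them distinct. The tagged genes matched the labels. ZC3H7B had 3768 reads in the ZC3H7B library and 1362 in the ZC3H7A library, and ZC3H7A had 158 in the ZC3H7B library and 82704 in the ZC3H7A library. Of 5 markers chosen for HEK293 cells, LIN28B and VIM had clusters in both libraries and PAX2, NEFM and ENO2 in neither. None of 6 markers of blood, liver, endothelial and connective tissue cells had a cluster. Clusters show bound RNA and not expression, so this is a weak check of the cell type.

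Taken as a group, the centromere and kinetochore genes leaned towards the ZC3H7A library. They held 11966 reads in the ZC3H7B library, or 0.497% of its total (95% interval 0.488 to 0.506%), and 28680 reads in the ZC3H7A library, or 0.759% (0.750 to 0.768%). For each gene listed in both tables with at least 20 reads summed, the log2 ratio of ZC3H7B over ZC3H7A reads was scaled so that the median of all 7168 such genes was 0. All 35 shared members passed this minimum. The call of higher required the whole exact 95% interval to lie beyond 2-fold. By this rule 2 of 35 members were higher in the ZC3H7B library (5.71%), against 18.2% of all genes compared, and 13 of 35 were higher in the ZC3H7A library (37.1%), against 18.0% of all genes. The median member stood at -0.57, against 0 for all genes, and the quartiles of the members were -1.86 and 0.19, against -1.05 and 1.03 for all genes. Members also carried more reads than the median gene, with a median of 146 reads against 82 in the ZC3H7B library and 395.5 against 135.5 in the ZC3H7A library. Larger counts narrow an interval and so make a call easier. Among genes with at least 100 reads summed, 1 of 33 members and 18.8% of all genes were higher in the ZC3H7B library, and 13 of 33 members and 19.7% of all genes in the ZC3H7A library.

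**Figure D1:**
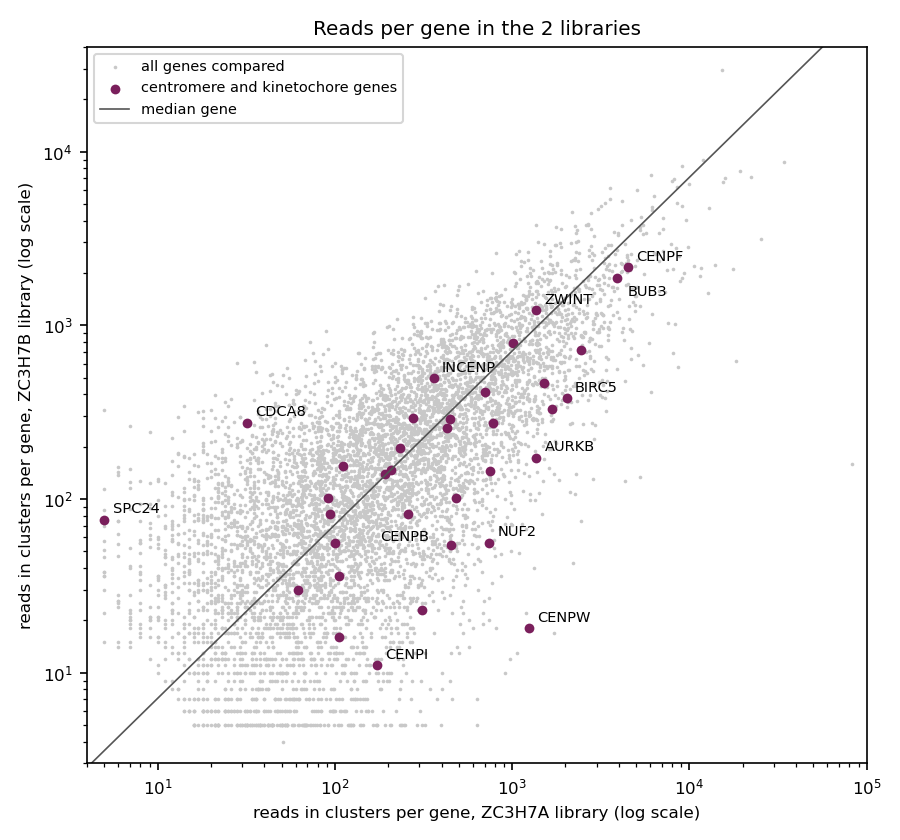
Reads in clusters per gene in the ZC3H7B library (vertical, log scale) and the ZC3H7A library (horizontal, log scale), for 7168 genes (grey) and the 35 shared centromere and kinetochore genes (purple); the line is the median gene. Of the 35 genes, 24 lie below the line, CENPW farthest, and 11 above it, SPC24 and CDCA8 farthest.

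Read sums of these libraries include many copies of the same sequence. Each distinct read of a member was counted 2.05 times on average in the ZC3H7B library and 13.9 times in the ZC3H7A library, against 1.99 for all genes in the ZC3H7B library and 12.6 in the ZC3H7A library. Across members the copies ran between 1.2 and 3.16 in the ZC3H7B library and between 2.5 and 21.7 in the ZC3H7A library. No molecular identifier is described, so copies of a read may come from PCR, and the intervals cover counting error only and are too narrow even for that. Ratios of the members called with reads are therefore given with distinct reads as well. Ratios of distinct reads, of mean reads per cluster and of clusters were each scaled to their own median over all genes compared. A call of higher is thus relative to the median gene. Before scaling, 29 of the 35 members had more distinct reads in the ZC3H7B library, as had 6518 of the 7218 genes listed in both tables. In distinct reads 1 of 35 members (2.86%) was higher in the ZC3H7B library, against 7.28% of all genes, and 6 of 35 (17.1%) in the ZC3H7A library, against 10.1%. All 6 and the 1 were among those called with reads. The median member stood at -0.45. By mean reads per cluster 3 members were higher in the ZC3H7B library (6.18% of all genes) and 3 in the ZC3H7A library (4.65% of all genes). Intervals of mean reads per cluster take the cluster numbers as fixed, so they leave out the error of those numbers and are too narrow. By number of clusters no member was called in either direction, against 0.321% of all genes called higher for ZC3H7B and 0.223% for ZC3H7A.

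**Figure D2:**
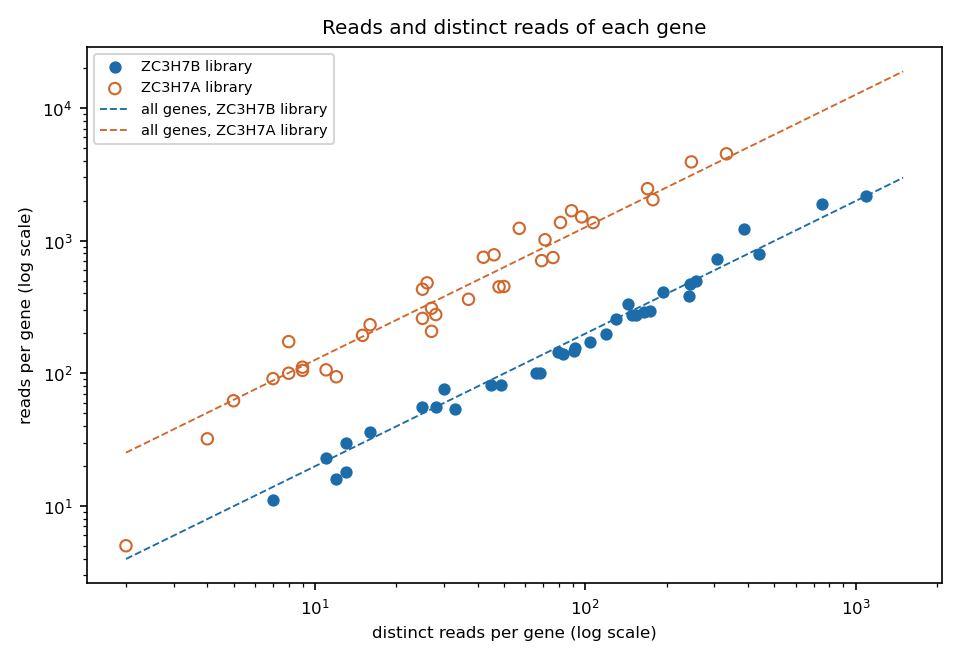
Reads against distinct reads of each of the 35 shared genes (both axes on log scales), for the ZC3H7B library (filled blue) and the ZC3H7A library (open orange); dashed lines give the average over all genes of that library. The members lie along both lines, between 1.33 and 3.16 reads per distinct read in the ZC3H7B library and between 2.5 and 21.7 in the ZC3H7A library.

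At the base of the structure, the 3 genes of centromeric chromatin stood apart from each other. CENPB, which binds a repeated DNA motif of the centromere, had 54 reads in the ZC3H7B library and 451 in the ZC3H7A library. Its log2 ratio was -2.57 (-3.00 to -2.16), or -2.66 (-3.34 to -1.99) with distinct reads. It was thus called higher in the ZC3H7A library by either count. CENPA, the centromeric histone itself, had 101 reads for ZC3H7B and 91 for ZC3H7A and stood at 0.64 (0.22 to 1.07). Its 66 distinct reads in the ZC3H7B library and 7 in the ZC3H7A library gave 1.18 (0.06 to 2.55), an interval not wholly beyond 2-fold. CENPC, which links the CENPA nucleosome to the outer layer, had 30 reads for ZC3H7B and 62 for ZC3H7A, with a ratio of -0.55 (-1.23 to 0.10). A pseudogene of CENPC was listed beside it with 14 reads for ZC3H7B and 27 for ZC3H7A, so the assignment of CENPC reads is uncertain. In this group the members therefore lay on both sides of the median gene.

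Genes of the constitutive centromere-associated network had the lowest median of the role groups. Of 12 named, 8 could be compared. Of these, 0 were higher in the ZC3H7B library and 6 were higher in the ZC3H7A library, with a median of -1.86, where 18.2% of all genes were higher for ZC3H7B and 18.0% for ZC3H7A. In distinct reads 2 of the 8 were called, both higher in the ZC3H7A library, where 10.1% of all genes were, and the median was -1.28.

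CENPW, a histone-fold protein that pairs with CENPT on DNA, was the member farthest towards ZC3H7A. It had 18 reads in 2 clusters in the ZC3H7B library and 1238 reads in 6 clusters in the ZC3H7A library. The distinct reads were 13 for ZC3H7B and 57 for ZC3H7A. Its log2 ratio of -5.61 (-6.37 to -4.94) was the ninth lowest of all genes, and with distinct reads it was -4.19 (-5.18 to -3.30). In the ZC3H7A library 3 of its 6 clusters lay in coding sequence, with 1 each in the 5' UTR, at the start codon and at the stop codon. In the ZC3H7B library 1 lay in coding sequence and 1 at the start codon. No cluster of this gene lay in a 3' UTR in either library. Its partner CENPT, the larger protein that reaches from DNA to the outer kinetochore, was listed for ZC3H7B alone, with 7 reads in 1 coding cluster. The 2 transcripts of this histone-fold pair thus had few reads in the ZC3H7B library, and only CENPW was listed for ZC3H7A.

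CENPH, CENPI, CENPK and CENPM form a further unit of the network. CENPH had 23 reads in the ZC3H7B library and 309 in the ZC3H7A library, a log2 ratio of -3.26 (-3.93 to -2.64) and of -3.35 (-4.51 to -2.29) in distinct reads. CENPI had 11 reads for ZC3H7B and 173 for ZC3H7A and stood at -3.48 (-4.51 to -2.61), but its distinct reads, 7 for ZC3H7B and 8 for ZC3H7A, gave -2.25 (-3.94 to -0.59), not wholly beyond 2-fold. CENPK had 82 reads for ZC3H7B and 259 for ZC3H7A and stood at -1.17 (-1.54 to -0.80), called in neither direction. CENPM had no called cluster in the ZC3H7B library and 70 reads in 2 clusters in the ZC3H7A library. All 4 genes of this unit were thus below the median gene or without a cluster in the ZC3H7B library.

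The unit of CENPO, CENPP, CENPQ and CENPU, which helps dock mitotic kinases, was mixed. CENPQ had 331 reads in the ZC3H7B library and 1679 in the ZC3H7A library, a ratio of -1.85 (-2.02 to -1.68), or -1.36 (-1.75 to -0.96) in distinct reads. CENPU had 145 reads for ZC3H7B and 749 for ZC3H7A and stood at -1.88 (-2.14 to -1.62), or -1.14 (-1.70 to -0.57) in distinct reads, so neither interval lay wholly beyond 2-fold by that count. CENPO had 196 reads for ZC3H7B and 232 for ZC3H7A and stood at 0.25 (-0.03 to 0.53). CENPP had 6 reads in 1 cluster for ZC3H7B alone. CENPU also differed in position, with 3 of 12 clusters in introns in the ZC3H7B library and 8 of 9 in the ZC3H7A library. CENPL, which with CENPN contacts the CENPA nucleosome, had 721 reads for ZC3H7B and 2462 for ZC3H7A, a ratio of -1.28 (-1.40 to -1.16), or -1.21 (-1.48 to -0.93) in distinct reads, where its interval reached inside 2-fold. CENPN itself had 16 reads in 2 clusters for ZC3H7B alone.

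**Figure D3:**
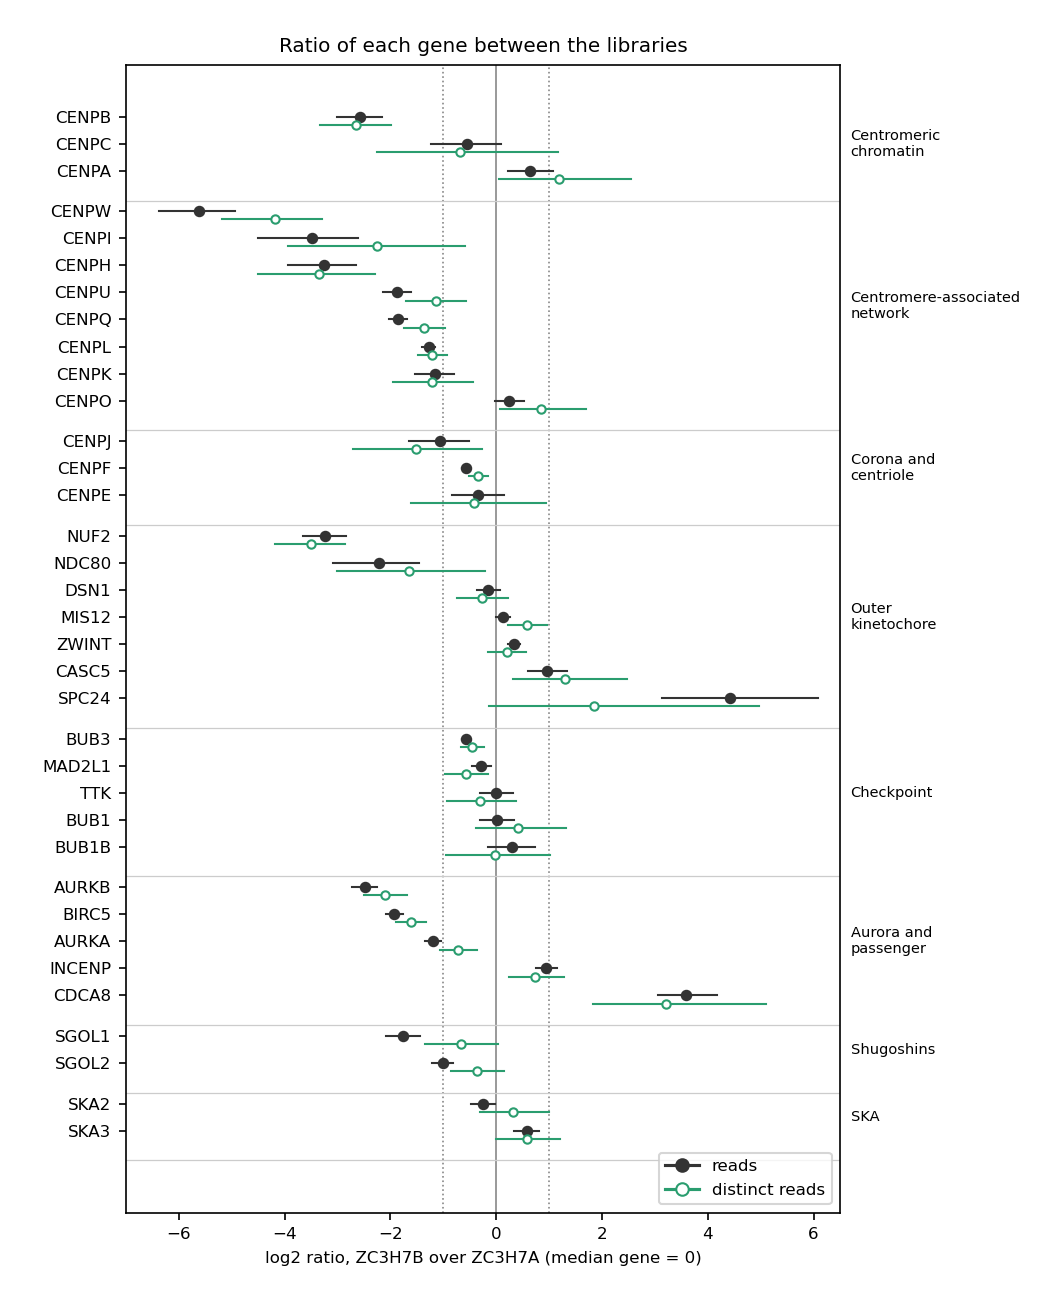
Log2 ratio of ZC3H7B over ZC3H7A for the 35 shared genes, grouped by role, with reads (filled) and distinct reads (open); bars are exact 95% intervals for counting error, the solid line is the median gene and dotted lines mark 2-fold. Within the centromere-associated network 7 of 8 genes lie left of the median gene, and the 5 checkpoint genes lie between -0.57 and 0.30 with reads.

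CENPE, a kinesin that carries chromosomes to the spindle equator, and CENPF, a large protein of the fibrous corona, were grouped with CENPJ, which shares the name but builds centrioles. None of the 3 was called in either direction. CENPF had 2153 reads in the ZC3H7B library and 4510 in the ZC3H7A library, a ratio of -0.57 (-0.65 to -0.50). CENPE had 56 reads for ZC3H7B and 100 for ZC3H7A, with -0.34 (-0.84 to 0.14), and CENPJ had 36 for ZC3H7B and 106 for ZC3H7A, with -1.07 (-1.65 to -0.51). What these transcripts shared was the position of their clusters. All 6 CENPE clusters in the ZC3H7B library and all 4 in the ZC3H7A library were coding, as were all 5 of CENPJ for ZC3H7B and all 3 for ZC3H7A. CENPF had 70 of 79 coding for ZC3H7B and 54 of 61 for ZC3H7A. The 3 genes together held 81 coding clusters of 90 for ZC3H7B, or 90.0%, and 61 of 68 for ZC3H7A, or 89.7%. Lengths of coding sequence and UTR were not used here, so these shares are not set against the length of each region.

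In the outer kinetochore the members split within the same complex. The NDC80 complex, which binds microtubules, consists of NDC80, NUF2, SPC24 and SPC25. NUF2 had 56 reads in the ZC3H7B library and 745 in the ZC3H7A library, a log2 ratio of -3.24 (-3.66 to -2.85), with -3.50 (-4.18 to -2.85) in distinct reads. NDC80 had 16 reads for ZC3H7B and 105 for ZC3H7A and stood at -2.22 (-3.08 to -1.46). Its distinct reads, 12 for ZC3H7B and 9 for ZC3H7A, gave -1.64 (-3.01 to -0.21), not wholly beyond 2-fold. SPC24 lay on the other side, with 76 reads in 3 clusters in the ZC3H7B library and 5 reads in 1 cluster in the ZC3H7A library, all 4 in the 3' UTR. Its ratio of 4.42 (3.13 to 6.08) rests on the smallest read sum that any gene had in the ZC3H7A library. In distinct reads, 30 for ZC3H7B and 2 for ZC3H7A, it was 1.85 (-0.13 to 4.96), an interval that includes 0. SPC25, the partner of SPC24, had no cluster in either library, and with a minimum of 100 reads SPC24 was the called member that dropped out.

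The other 4 outer genes were called in neither direction with reads or distinct reads. CASC5, the scaffold that recruits checkpoint proteins, had 154 reads in 18 clusters in the ZC3H7B library and 111 reads in 3 clusters in the ZC3H7A library, a ratio of 0.97 (0.60 to 1.33), or 1.30 (0.31 to 2.47) in distinct reads. ZWINT, which binds CASC5, had 1222 reads for ZC3H7B and 1369 for ZC3H7A and stood at 0.33 (0.22 to 0.44). By mean reads per cluster ZWINT stood at 1.30 (1.19 to 1.42) and was called higher in the ZC3H7B library, relative to the median gene. Before scaling, its mean was 122.2 reads per cluster for ZC3H7B and 136.9 for ZC3H7A. MIS12 and DSN1 are subunits of the complex that ties the outer kinetochore to the inner one. MIS12 had 790 reads for ZC3H7B and 1015 for ZC3H7A and stood at 0.13, with an interval that began just below 0 and ended at 0.27, and DSN1 had 287 for ZC3H7B and 448 for ZC3H7A, with -0.15 (-0.37 to 0.07).

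The 5 checkpoint genes lay close to the median gene, and none was called with reads or distinct reads. BUB3, a propeller protein that brings BUB1 and BUB1B to kinetochores, had 1882 reads in the ZC3H7B library and 3921 in the ZC3H7A library, a ratio of -0.57 (-0.65 to -0.49). The kinase BUB1 had 139 reads for ZC3H7B and 193 for ZC3H7A, with 0.02 (-0.31 to 0.34). BUB1B, which encodes BubR1, a subunit of the checkpoint inhibitor, had 82 for ZC3H7B and 94 for ZC3H7A, with 0.30 (-0.15 to 0.74). MAD2L1, which encodes the checkpoint protein MAD2, had 413 reads for ZC3H7B and 706 for ZC3H7A and stood at -0.28 (-0.46 to -0.10). TTK, the kinase that starts the signal, had 147 reads for ZC3H7B and 207 for ZC3H7A and its interval ran between -0.32 and 0.31. The intervals of all 5 genes lay within 2-fold with reads.

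Among the Aurora kinases and the chromosomal passenger complex, members of the same complex lay far apart. AURKB, the kinase of the complex, had 173 reads in the ZC3H7B library and 1366 in the ZC3H7A library, a log2 ratio of -2.49 (-2.72 to -2.26), with -2.10 (-2.50 to -1.69) in distinct reads. BIRC5, which encodes survivin, had 381 reads for ZC3H7B and 2034 for ZC3H7A and stood at -1.92 (-2.09 to -1.77), with -1.61 (-1.89 to -1.32) in distinct reads. Both were higher in the ZC3H7A library by either count. CDCA8, which encodes borealin, the subunit that binds survivin, had 275 reads in 10 clusters in the ZC3H7B library and 32 reads in 1 cluster in the ZC3H7A library. Its ratio of 3.60 (3.06 to 4.17), or 3.21 (1.83 to 5.10) with 154 distinct reads for ZC3H7B and 4 for ZC3H7A, made it the only member called higher in the ZC3H7B library by both counts. INCENP, the scaffold of the complex, had 495 reads for ZC3H7B and 361 for ZC3H7A and stood at 0.95 (0.75 to 1.15), called in neither direction with reads or distinct reads. By mean reads per cluster it was called higher in the ZC3H7B library, at 2.51 (2.31 to 2.71), with 6 clusters for ZC3H7B and 9 for ZC3H7A. That interval takes the cluster numbers as fixed. The ratio of its cluster numbers had a much wider interval, -3.28 to 0.14. Before scaling, INCENP was 1 of 2 shared members with more reads per cluster in the ZC3H7B library, and the other was SPC24. INCENP had 82.5 for ZC3H7B against 40.1 for ZC3H7A.

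AURKA, the related kinase of the spindle poles, had 467 reads in the ZC3H7B library and 1509 in the ZC3H7A library. Its ratio of -1.20 (-1.35 to -1.05) lay just beyond 2-fold with its whole interval, and -0.73 (-1.07 to -0.37) in distinct reads did not. Scaled to total reads the ratio was -1.04 and the call was lost. By mean reads per cluster AURKA stood on the other side of the median gene, at 0.23. Shugoshins protect the cohesion of centromeres. SGOL1 had 101 reads for ZC3H7B and 480 for ZC3H7A and stood at -1.76 (-2.08 to -1.44), or -0.67 (-1.34 to 0.04) in distinct reads. SGOL2 had 275 reads for ZC3H7B and 781 for ZC3H7A, with -1.01 (-1.22 to -0.81), called in neither direction. SKA genes encode a complex that follows shrinking microtubule ends. SKA2 had 256 reads for ZC3H7B and 430 for ZC3H7A and stood at -0.26 (-0.48 to -0.03), and SKA3 had 293 for ZC3H7B and 277 for ZC3H7A, with 0.57 (0.33 to 0.82). SKA1, the subunit that binds microtubules, had no cluster in either library. A pseudogene of SKA2 was listed with 6 reads in the ZC3H7B library, so a small part of the SKA2 reads is uncertain.

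Clusters of these genes lay in coding sequence more often than clusters of all genes did, in both libraries. Coding sequence held 219 of 465 member clusters in the ZC3H7B library, or 47.1% (42.5 to 51.7%), and 183 of 328 in the ZC3H7A library, or 55.8% (50.2 to 61.2%). Over all genes the shares were 29.6% for ZC3H7B and 42.7% for ZC3H7A. The 3' UTR held 36.6% (32.2 to 41.1%) of member clusters for ZC3H7B, against 55.8% over all genes, and 24.7% (20.1 to 29.7%) for ZC3H7A, against 39.8%. Without CENPF, which alone supplied 32.0% of the coding clusters for ZC3H7B and 29.5% for ZC3H7A, the coding shares were 38.6% (33.7 to 43.7%) for ZC3H7B and 48.3% (42.2 to 54.5%) for ZC3H7A. The share of all genes in the ZC3H7A library, 42.7%, lies inside that interval. The intervals take clusters as independent, and clusters of 1 transcript share it.

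**Figure D4:**
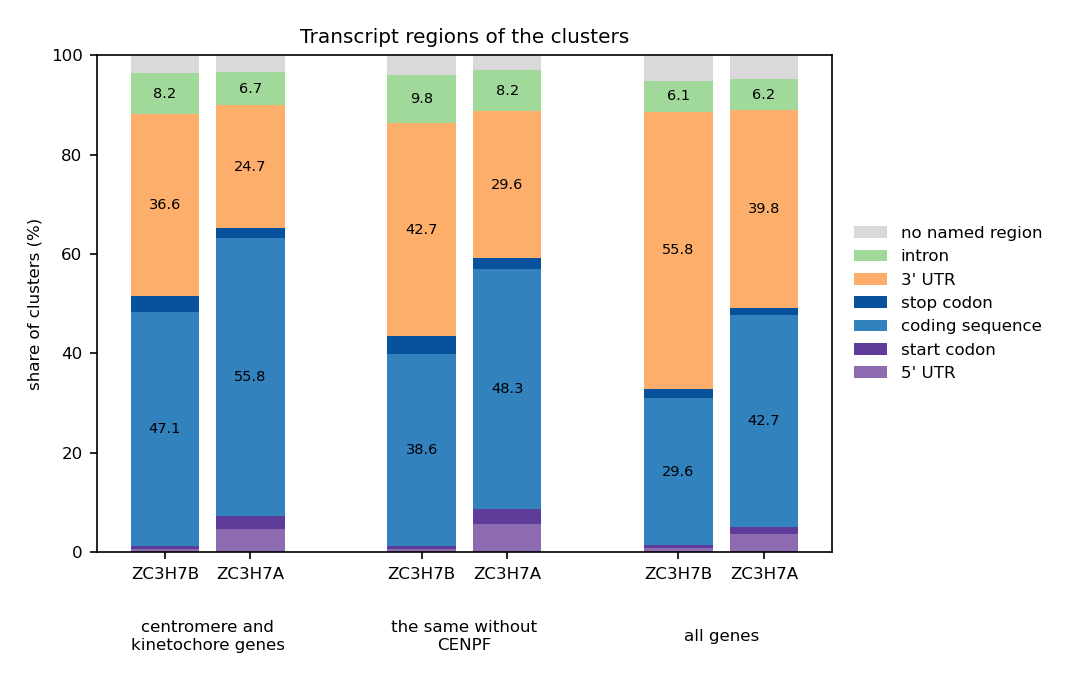
Share of clusters (%) in each transcript region, in the ZC3H7B and the ZC3H7A library, for the centromere and kinetochore genes, for the same genes without CENPF and for all genes. Coding sequence takes 47.1% of member clusters for ZC3H7B and 55.8% for ZC3H7A, against 29.6% for ZC3H7B and 42.7% for ZC3H7A over all genes.

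Within genes the ZC3H7A clusters lay more often in coding sequence and the ZC3H7B clusters more often in the 3' UTR, as over all genes. Of 31 members with at least 20 reads in each library, 7 had the higher coding share with ZC3H7B (23.6% of all genes), 21 with ZC3H7A (60.4% of all genes) and 3 had equal shares. Taking ZC3H7B minus ZC3H7A, members had a median difference of -11.1 percentage points and all genes a median of -8.33 points. For the 3' UTR, 21 members had the higher share with ZC3H7B (62.8% of all genes) and 3 with ZC3H7A (18.4% of all genes), namely BUB3, MAD2L1 and AURKA. The members' counts of 7 and 21 are 22.6% and 67.7% of 31, close to those of all genes.

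Single genes differed in size and direction. CENPO had 1 of 15 clusters coding and 13 in the 3' UTR in the ZC3H7B library, against 3 and 2 of 5 in the ZC3H7A library. SKA3 had 6 coding and 8 3' UTR clusters of 19 in the ZC3H7B library, against 8 and 0 of 10 in the ZC3H7A library. CDCA8 had 8 of 10 clusters in the 3' UTR in the ZC3H7B library, whereas its 1 cluster in the ZC3H7A library was coding. Each of these 3 transcripts thus had most of its ZC3H7A clusters in coding sequence and more 3' UTR than coding clusters for ZC3H7B. MIS12 had 5 coding and 18 3' UTR clusters of 25 in the ZC3H7B library, against 6 and 5 of 12 in the ZC3H7A library. The 7 members on the other side included 3 with differences of over 20 points. CENPU had 6 of 12 clusters coding for ZC3H7B and 1 of 9 for ZC3H7A, AURKA had 5 of 8 for ZC3H7B and 4 of 11 for ZC3H7A, and CENPC had 3 of 3 for ZC3H7B and 1 of 2 for ZC3H7A. BIRC5 had 4 coding clusters of 18 in both libraries, with 14 in the 3' UTR for ZC3H7B and 10 for ZC3H7A. Among the 35 shared members, 7 had 3' UTR clusters in the ZC3H7B library alone (18.8% of all genes listed in both tables). CENPI had 1 in the ZC3H7A library alone (2.54% of all genes). The 7 members are 20% of 35, close to the share of all genes.

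Several transcripts kept 1 kind of position in both libraries. SKA2 had 16 of 17 clusters in the 3' UTR in the ZC3H7B library and 4 of 5 in the ZC3H7A library, and MAD2L1 had 16 of 20 for ZC3H7B and 11 of 13 for ZC3H7A. ZWINT had 8 of 10 for ZC3H7B and 6 of 10 for ZC3H7A there. By contrast, 10 of 12 BUB1 clusters for ZC3H7B and 4 of 4 for ZC3H7A were coding. BUB1B had 6 of 7 coding for ZC3H7B and 5 of 5 for ZC3H7A, and TTK had 12 of 13 for ZC3H7B and 7 of 8 for ZC3H7A. SGOL2 had 19 of 25 coding for ZC3H7B and 11 of 13 for ZC3H7A. The checkpoint genes thus held both mainly coding transcripts, those of BUB1, BUB1B and TTK, and a mainly 3' UTR transcript, MAD2L1. BUB3 was mixed, with 10 of 26 clusters in the 3' UTR and 6 coding for ZC3H7B, and 12 of 21 and 5 coding for ZC3H7A.

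**Figure D5:**
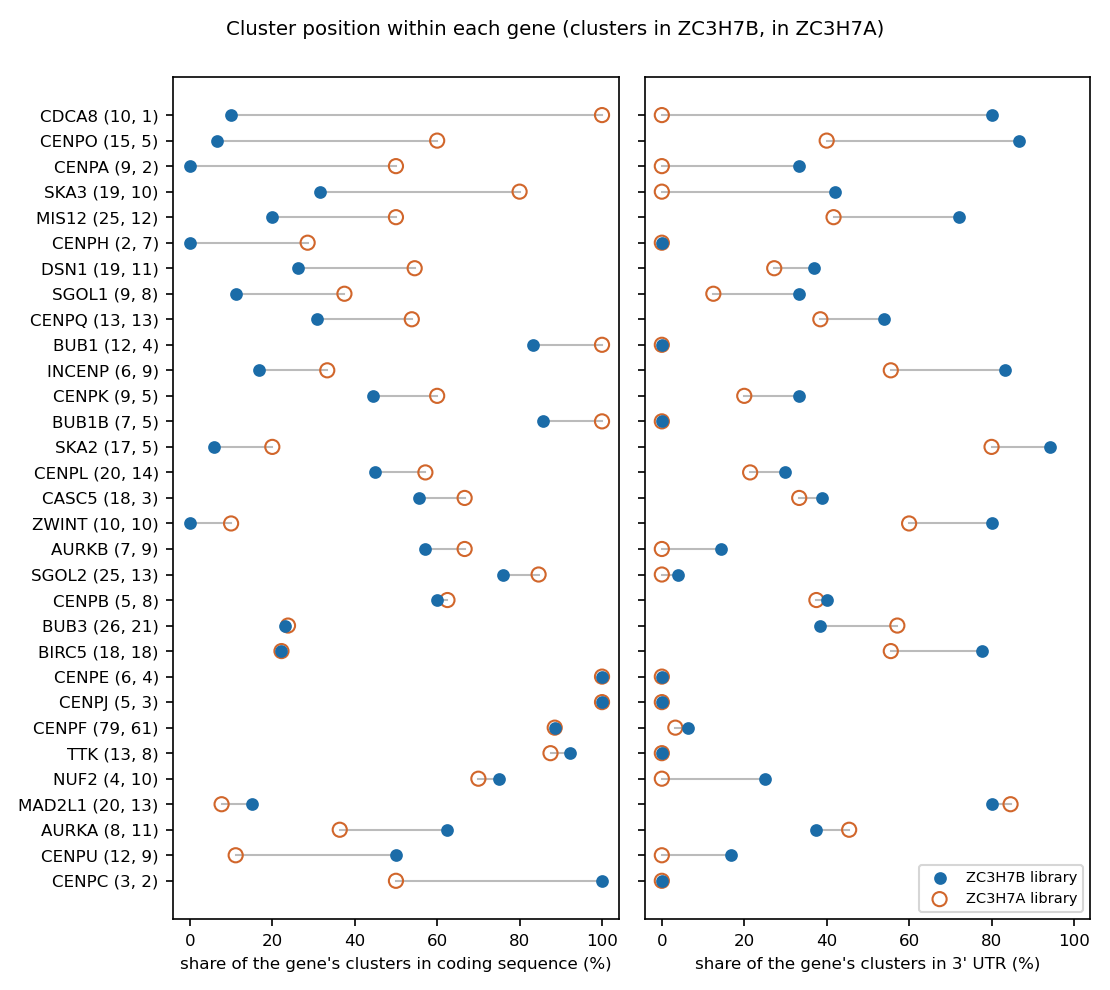
Percent of each gene's clusters that are coding (left) or 3' UTR (right), for the 31 genes with at least 20 reads in each library; filled points are the ZC3H7B library and open points the ZC3H7A library, with cluster numbers in that order after each name. In the coding panel 21 genes have the ZC3H7A point to the right of the ZC3H7B point and 7 the reverse.

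Clusters at the 5' end were few and lay mostly in the ZC3H7A library. The 5' UTR held 3 of 465 member clusters in the ZC3H7B library, or 0.645% (0.133 to 1.87%), and 15 of 328 in the ZC3H7A library, or 4.57% (2.58 to 7.43%), against 0.772% for ZC3H7B and 3.61% for ZC3H7A over all genes. Among shared members, CENPF and MIS12 had 5' UTR clusters in the ZC3H7B library alone, CENPL in both, and 11 genes in the ZC3H7A library alone. The members with such clusters in the ZC3H7B library alone were 5.71% of 35, against 2.84% of all genes listed in both tables, and those in the ZC3H7A library alone 31.4%, against 14.3%. Members also had more clusters than the median gene, with medians of 9 against 7 for ZC3H7B and 8 against 4 for ZC3H7A, and the part of this in the counts was not tested. These 11 were AURKA, BIRC5, BUB3, CENPC, CENPW, DSN1, INCENP, MAD2L1, NUF2, SGOL1 and SKA3, with 1 cluster each apart from DSN1 and NUF2, which had 2. Start codons held 3 clusters in the ZC3H7B library, or 0.645% (0.645% over all genes), and 9 in the ZC3H7A library, or 2.74% (1.43% over all genes). Stop codons held 15 for ZC3H7B, or 3.23% (1.85% over all genes), and 7 for ZC3H7A, or 2.13% (1.46% over all genes).

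T-to-C conversion was high on the members, as on other genes. The share of converted reads, averaged over the clusters of a gene, had a median of 92.5% over members in the ZC3H7B library and 96.6% in the ZC3H7A library, against 91.1% for ZC3H7B and 97.4% for ZC3H7A over all genes. The lowest values were 85.2% for CDCA8 in the ZC3H7B library and 81.0% for AURKB in the ZC3H7A library. What the cluster caller required is not stated here, and a minimum on conversion would raise these values.

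Other genes of the same machinery were looked up from a pair of lists, also chosen with earlier results of these data known. Of 32 other centromere, kinetochore and checkpoint genes, 24 could be compared. Of these, 3 were higher in the ZC3H7B library and 9 in the ZC3H7A library, with a median of -0.70. That is 12.5% for ZC3H7B and 37.5% for ZC3H7A, against 18.2% of all genes for ZC3H7B and 18.0% for ZC3H7A. In distinct reads 1 was higher for ZC3H7B (4.17%, against 7.28% of all genes) and 2 for ZC3H7A (8.33%, against 10.1%). TPX2, which activates Aurora A on the spindle, had 823 reads in the ZC3H7B library and 3477 in the ZC3H7A library and stood at -1.59 (-1.70 to -1.48). HJURP, the chaperone that deposits CENPA, had 70 reads for ZC3H7B and 639 for ZC3H7A and stood at -2.70 (-3.07 to -2.34). The remaining genes higher in the ZC3H7A library were CENPBD1, ITGB3BP, MAD2L1BP, GSG2, NDE1, SPDL1 and CENPV, at -2.93 to -1.20. MIS18A, which prepares centromeres for new CENPA, had 135 reads for ZC3H7B and 24 for ZC3H7A and stood at 2.98 (2.35 to 3.68). TRIP13, which disassembles the checkpoint complex, stood at 2.88 (2.14 to 3.69) and CLASP1, a microtubule stabiliser, at 2.78 (2.04 to 3.60), each with 18 reads in the ZC3H7A library. In distinct reads HJURP, TPX2 and MIS18A were called and the other 9 were not. Some of these 9 had ratios about as far from 0 as with reads, such as TRIP13 at 2.73, CLASP1 at 2.56, SPDL1 at -1.47 and ITGB3BP at -2.64. APITD1, a histone-fold partner in the centromere, stood at -1.61 (-2.46 to -0.83) with reads and was not called. CKAP5, a microtubule polymerase with 446 reads for ZC3H7B and 929 for ZC3H7A, stood at -0.57 (-0.73 to -0.40).

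The anaphase-promoting complex is the ubiquitin ligase that the checkpoint restrains, and PTTG1, which encodes securin, is among its targets. Of 17 genes of this list, 10 could be compared, 1 higher in the ZC3H7B library (18.2% of all genes) and 3 in the ZC3H7A library (18.0% of all genes), with a median of -0.51. PTTG1 had 55 reads in the ZC3H7B library and 594 in the ZC3H7A library, a ratio of -2.94 (-3.37 to -2.54). ANAPC11 stood at -2.69 (-3.33 to -2.12) and ANAPC15 at -2.56 (-3.93 to -1.42), whereas ANAPC13 had 209 reads for ZC3H7B and 37 for ZC3H7A and stood at 2.99 (2.48 to 3.54). Among the subunits with the most reads, CDC27 stood at 0.56 (0.41 to 0.71), CDC23 at 0.74 (0.56 to 0.92), ANAPC16 at 0.08 (-0.14 to 0.29) and ANAPC10 at -1.09 (-1.39 to -0.80). ANAPC5, a further subunit, stood at -1.47 (-2.09 to -0.89) and was not called. In distinct reads PTTG1 and ANAPC11 were called, both higher in the ZC3H7A library, and the other called genes were not. These are 20% of the 10 for ZC3H7A, against 10.1% of all genes, and 0% for ZC3H7B, against 7.28%.

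Across the 35 shared members, log2 reads in the ZC3H7B library and in the ZC3H7A library had a Pearson correlation of 0.56 and a Spearman correlation of 0.624. Over the 7218 genes listed in both tables the values were 0.70 and 0.709. The points share cells of 1 line and their transcript lengths and levels, and genes are not independent replicates, so these values are a description.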

How the data were processed

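PAR-CLIP reads of 1 ZC3H7B and 1 ZC3H7A library were analysed from 1 gene table each. The submitters' processing notes name STAR 2.5.2a, Bowtie, cutadapt and build hg19, without roles or settings, and the cluster caller is not given in the sources used here. Clusters, reads and distinct reads summed over clusters, and clusters per region, are deposited as counts. The authors' exon column was read as coding sequence. The deposited fraction is the median T-to-C fraction over clusters, and its deposited sum over clusters, a signal that is never negative, was divided by the number of clusters. The deposited log10 specificity and the deposited median of distinct reads, named a score here, were not used.

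Rows naming repeats or small RNA classes and no gene were left out, 407 of 9566 for ZC3H7B (1.51% of reads) and 282 of 8486 for ZC3H7A (1.57%). All 41 symbols were found among the symbols or synonyms of a RefSeq table of GRCh38.p14, used for names only. Exact intervals are Clopper-Pearson, on reads conditional on their sum. No p-value was computed, because each protein has 1 library. The ratio step was run on simulated independent counts. These held no repeated copies of a read, so that run cannot show how copies affect the intervals.

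The genes, lists and alternatives were chosen with earlier results of these data known. The genes named were all members, and of each other list the 5 genes with the most reads and every gene beyond 2-fold. Alternatives were distinct reads, mean reads per cluster, clusters, total and TMM scaling (edgeR 4.0.16, R 4.3.3), minimums of 100 or no reads, missing genes at 0, and region shares without CENPF, weighted equally or with at least 3 clusters. Intervals came from scipy 1.17.1, figures from matplotlib 3.10.9 and tables from pandas 2.3.3 with numpy 2.4.6, in Python 3.11.15.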

Additional observations from a re-analysis of the deposited data

How the results depend on the processing

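The counts of called members depended most on what was counted. With distinct reads 1 member was higher in the ZC3H7B library and 6 in the ZC3H7A library, 3 for ZC3H7B and 3 for ZC3H7A with mean reads per cluster, and 0 for either when clusters were counted. With at least 100 reads summed 1 member was higher in the ZC3H7B library. For the other centromere, kinetochore and checkpoint genes the counts were 1 for ZC3H7B and 2 for ZC3H7A with distinct reads. They were 0 for either with mean reads per cluster or clusters. With missing genes at 0, 7 of 30 were higher in the ZC3H7B library (24.1% of all genes) and 11 of 30 in the ZC3H7A library (23.4% of all genes). For the anaphase-promoting complex list, 0 were higher in the ZC3H7B library with distinct reads, 0 for ZC3H7B and 1 for ZC3H7A by mean reads per cluster, 0 for either when clusters were counted, and 2 of 13 for ZC3H7B and 5 of 13 for ZC3H7A once missing genes were set at 0 (24.1% of all genes for ZC3H7B and 23.4% for ZC3H7A). Calls were also rarer over all genes with distinct reads, mean reads per cluster and clusters. By distinct reads, 7.28% of all genes were called higher for ZC3H7B and 10.1% for ZC3H7A. Averages per cluster gave 6.18% for ZC3H7B and 4.65% for ZC3H7A, and cluster numbers 0.321% for ZC3H7B and 0.223% for ZC3H7A. A count of 0 by cluster number thus does not set a list apart from all genes. The cause of the changes in the member and list counts was not tested. Total scaling, which moved the median gene to 0.16, TMM scaling and no minimum kept these counts within 1.5 times, though AURKA lost its call with total scaling (-1.04), which left 12 members higher in the ZC3H7A library. The median of the members stayed below 0, between -0.60 and -0.41, under all 9 alternatives, including 1 chosen after seeing the data that left out MLF1IP. Total and TMM scaling shift every gene by the same amount, so they could not change the distance of the members from the median gene. AURKA alone among called members changed sides, at 0.23 with mean reads per cluster. Without CENPF the coding share of member clusters was 38.6% for ZC3H7B and 48.3% for ZC3H7A, and the 3' UTR share for ZC3H7B was 42.7%. The within-gene difference in coding share was -10.6 points with at least 3 clusters in each library and -10.0 with no minimum. No paired analysis was possible because each protein has 1 library. Few distinct reads in the ZC3H7A library, such as 2 for SPC24 and 4 for CDCA8, leave wide intervals for those ratios.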
